A study of Mus musculus with 24 samples.

Results

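The bone marrow stromal niche genes described here are 9 genes that stromal cells of the marrow use to hold and nourish blood cell precursors, read in RNA of CD11b+ myeloid cells. They are Cxcl12, Igfbp5, Ebf3, Lepr, Kitl, Foxc1, Adipoq, Angpt1, and Pdgfra. They were chosen on the measured values of these same arrays, with the difference between bone marrow and spleen in view, so that difference is described without a test. The 9 genes stand for 13 probes among 39429 probes and 32451 genes or transcripts on the array.

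The study asked what part STAT6 signaling plays in fibrosis of the heart induced by isoproterenol, an agonist of β-adrenergic receptors. It examined hearts, cardiac fibroblasts, and myeloid cells. Its arrays, described here, were of myeloid cells from mice with MI (myocardial infarction) and from controls. RNA of CD11b+ cells from spleen or from bone marrow was hybridized to one-colour Agilent mouse arrays. There were 24 arrays, 1 for each combination of genotype, tissue, and time, each from cells pooled from 5 mice, so the spread between mice was not measured. Of these, 22 were complete and were used, 11 of each tissue, whereas the control array of HDC-KO spleen and the MI 1 week array of STAT6-KO bone marrow held too few spots and were not used.

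The groups were WT, HDC-KO (without histidine decarboxylase, the enzyme that makes histamine), and STAT6-KO (without the transcription factor STAT6), each as control and at 1, 2, and 4 weeks after MI. The mice were male, on a Balb/C background, and 10 weeks old, and the labels name no promoter or cell type that limits either knockout. The control mice had no MI, and the labels do not say whether they were operated on, although the study's text once calls this group sham. The purity of the CD11b+ cells is not given in the sources used here.

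Marrow reticular cells are perivascular stromal cells that wrap the sinusoids. They secrete the chemokine CXCL12 and stem cell factor (encoded by Kitl), carry the leptin receptor, and depend on the transcription factors FOXC1 and EBF3. Haematopoietic stem cells, B cell precursors, and myeloid precursors that carry CXCR4 are retained beside them, and CD11b+ cells themselves are not known as a main source of these transcripts.

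Levels are log2 of the background-subtracted signal minus the 75th percentile of the same array, so 0 is a bright probe and each unit is a doubling. That percentile lay between 927.9 and 2461.1 signal units, and 70.4 to 79.8% of the spots were well above background, the flag that the image software gives to a spot clearly brighter than its surround. Itgam, the gene of CD11b, ranged from 5.10 to 5.85 in bone marrow and from 3.52 to 4.83 in spleen, and the granule and neutrophil genes S100a8, S100a9, Csf3r, and Camp lay at 5.22 or higher on all 22 arrays. Mpo was 4.57 to 5.91 in bone marrow and 0.37 to 4.04 in spleen, and Ngp was 5.77 to 6.74 and 3.75 to 5.63. Lyz2 was 2.63 to 3.87 and 1.30 to 2.61, and Itgb2 was 3.91 to 4.96 and 2.26 to 3.83. Csf1r went the other way, at 4.66 to 5.41 and 5.28 to 6.35. The defining markers of the labelled cells were thus present throughout, although several differed in level between tissues. Hdc was at most 2.78 in HDC-KO and at least 4.12 on the other arrays. Stat6 was 1.76 to 2.44 in STAT6-KO, 2.38 to 3.70 in WT, and 2.24 to 3.06 in HDC-KO. These ranges overlapped, and all 7 STAT6-KO arrays read Stat6 above background. Of the 11 genes on the myeloid list, Ly6g was not matched on the array. The 4 arrays of 1 genotype and tissue shared a slide scan in the same order of time points, so genotype within a tissue cannot be told apart from slide, nor time from position on it.

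The sequence just before the start of a gene is shown for the 4 members whose bone marrow arrays all lay above their spleen arrays, because the contrast between tissues is clearest for them. Each line gives the 250 bases upstream of the annotated start from RefSeq on build GRCm38.p6, 5′ to 3′ along the gene's own strand, in lower case with a searched motif in capitals.
Cxcl12 (chr6:117168285-117168534, plus strand): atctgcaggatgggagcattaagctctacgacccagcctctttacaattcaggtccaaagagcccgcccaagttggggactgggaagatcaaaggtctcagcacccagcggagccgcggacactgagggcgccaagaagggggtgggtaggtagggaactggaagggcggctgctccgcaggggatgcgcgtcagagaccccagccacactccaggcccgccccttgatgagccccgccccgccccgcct
Igfbp5 (chr1:72874866-72875115, minus strand): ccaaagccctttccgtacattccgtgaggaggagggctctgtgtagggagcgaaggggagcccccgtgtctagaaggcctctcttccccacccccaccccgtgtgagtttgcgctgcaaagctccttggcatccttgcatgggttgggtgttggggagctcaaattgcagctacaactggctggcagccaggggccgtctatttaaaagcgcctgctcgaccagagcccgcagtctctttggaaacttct
Ebf3 (chr7:137314446-137314695, minus strand): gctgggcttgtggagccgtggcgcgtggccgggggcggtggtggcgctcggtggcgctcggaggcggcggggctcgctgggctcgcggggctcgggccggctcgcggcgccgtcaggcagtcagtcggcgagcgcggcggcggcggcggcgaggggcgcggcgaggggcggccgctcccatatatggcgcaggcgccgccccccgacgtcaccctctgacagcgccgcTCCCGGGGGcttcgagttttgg
Adipoq (chr16:23146286-23146535, plus strand): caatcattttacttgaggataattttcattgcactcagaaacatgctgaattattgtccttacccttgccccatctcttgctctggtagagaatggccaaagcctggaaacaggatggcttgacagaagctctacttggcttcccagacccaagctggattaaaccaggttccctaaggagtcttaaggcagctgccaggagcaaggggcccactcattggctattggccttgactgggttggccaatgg

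The Ebf3 window was 80.0% G or C with 43 CG dinucleotides, and the Adipoq window was 48.8% with 0, against a median of 52.4% over 32851 windows of the same length. Both strands were searched for 9 letters of the EBF motif, TCCCNNGGG, and for a forkhead motif, TGTTTAC. The EBF letters stood in 5.6% of all windows and in 1 of the 9 windows of the members, that of Ebf3, where the match in capitals begins 22 bases before the start. The forkhead letters stood in 3.17% of all windows and in 0 of the 9. Angpt1 had no window in the table and Lepr had 2. A match is a run of letters and not a measured site.

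Cxcl12, the chemokine that retains CXCR4-bearing cells in the marrow, was far brighter in bone marrow-derived than in spleen-derived cells. It ranged from -1.02 to 2.43 in bone marrow (median 1.79) and from -5.56 to -3.00 in spleen (median -4.53). The means were 1.26 ± 1.19 (SD, n = 11) and -4.42 ± 0.69 (SD, n = 11), a difference of 5.69 or 51.5-fold. Every bone marrow array lay above every spleen array, and both probes of the gene behaved alike. The second probe ranged from -3.30 to 0.70 in bone marrow and from -7.49 to -3.52 in spleen. Among the 20510 genes well above background on all 22 arrays, Cxcl12 had 0 genes with a larger difference of the tissue means. Over the 27605 genes well above background on at least 2 arrays it ranked 2, after Igfbp5. The members were chosen with this difference in view, so nothing is read from these ranks.

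Igfbp5, a secreted binding protein of insulin-like growth factors, was bright in bone marrow and not detected above background in spleen. Its bone marrow level ranged from -2.41 to 1.65 (median 0.14), with a mean of -0.17 ± 1.24 (SD, n = 11). It was well above background on 0 of the 11 spleen arrays. Bone marrow was therefore at least 88.1-fold higher, with each spleen array set to its lowest signal well above background or to the spot's own value where that was higher. The same bound is used for the other members below background. It holds for the main processing alone, since with normexp background correction the measured differences were 4.12 for Igfbp5, 1.47 for Ebf3, and 0.79 for Foxc1, which are smaller than the bounds given here.

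Ebf3 and Foxc1, transcription factors that maintain the reticular cell state, showed the same pattern at lower signals. Ebf3 ranged from -5.66 to -2.18 in bone marrow (median -3.19) and was well above background on 0 of 11 spleen arrays, a difference of at least 8.65-fold. Foxc1 ranged from -7.94 to -3.55 in bone marrow (median -4.68), where 10 of 11 arrays were well above background, and again 0 of 11 spleen arrays were, a difference of at least 3.21-fold. The ranges of Foxc1 overlapped, since its lowest bone marrow array, WT MI 1 week, was below background.

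Adipoq, which encodes the hormone adiponectin and is made by marrow adipocytes and their reticular precursors, ranged from -4.49 to -0.54 in bone marrow (median -1.76). In spleen it ranged from -8.24 to -6.07, and 4 of 11 arrays were well above background. The groups did not overlap, and the difference of means was 4.51. Angpt1, the ligand of the TIE2 receptor, ranged from -4.27 to -1.25 in bone marrow (median -2.18) and from -5.09 to -3.08 in spleen (median -3.52). Its ranges overlapped through both bone marrow MI 1 week arrays, although bone marrow was higher in 10 of 10 pairs of arrays with the same genotype and time, by 1.29 ± 0.34 (SD, n = 10).

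The other members did not stand higher in bone marrow. Kitl, the stem cell factor gene, ranged from -3.78 to -2.38 in bone marrow (median -3.09) and from -4.14 to -1.53 in spleen (median -2.67), and bone marrow was higher in 2 of 10 pairs. Pdgfra, a receptor of platelet-derived growth factor, ranged from -8.16 to -3.93 in bone marrow (median -5.38) and from -5.46 to -3.37 in spleen (median -4.59). Bone marrow was higher in 3 of 10 pairs for Pdgfra, and 2 bone marrow arrays were below background. These ranges overlapped for both genes.

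Lepr, the leptin receptor gene, depended on the probe. On its brightest probe it ranged from -2.50 to 0.27 in bone marrow and from -2.42 to 1.26 in spleen, with overlapping groups and means within 0.02 of each other. On the probe A_55_P2192662, which targets another RefSeq transcript of the gene, bone marrow ranged from -7.45 to -2.97 with 9 of 11 arrays well above background, whereas 1 of 11 spleen arrays was. The other 2 probes ranged from -7.02 to -3.89 in bone marrow and from -8.03 to -4.36 in spleen and overlapped between tissues. A single Lepr level cannot be given from these probes.

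In all, 4 of the 9 members (Cxcl12, Igfbp5, Ebf3, and Adipoq) had every bone marrow array above every spleen array. The same held for 7.32% of the 27605 genes well above background on at least 2 arrays, and 5.88% of them lay higher in spleen throughout, which was true of 0 members. The members were chosen for this contrast, so nothing is read from these shares. With normexp background correction, which raised the lowest signals of 3 arrays, 1 member was left without overlap. The median difference of the members was 3.71, and that of all those genes was 0.18. The member median is the value of Foxc1, whose spleen signals were all below background, so it is not a measured difference.

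**Figure D1:**
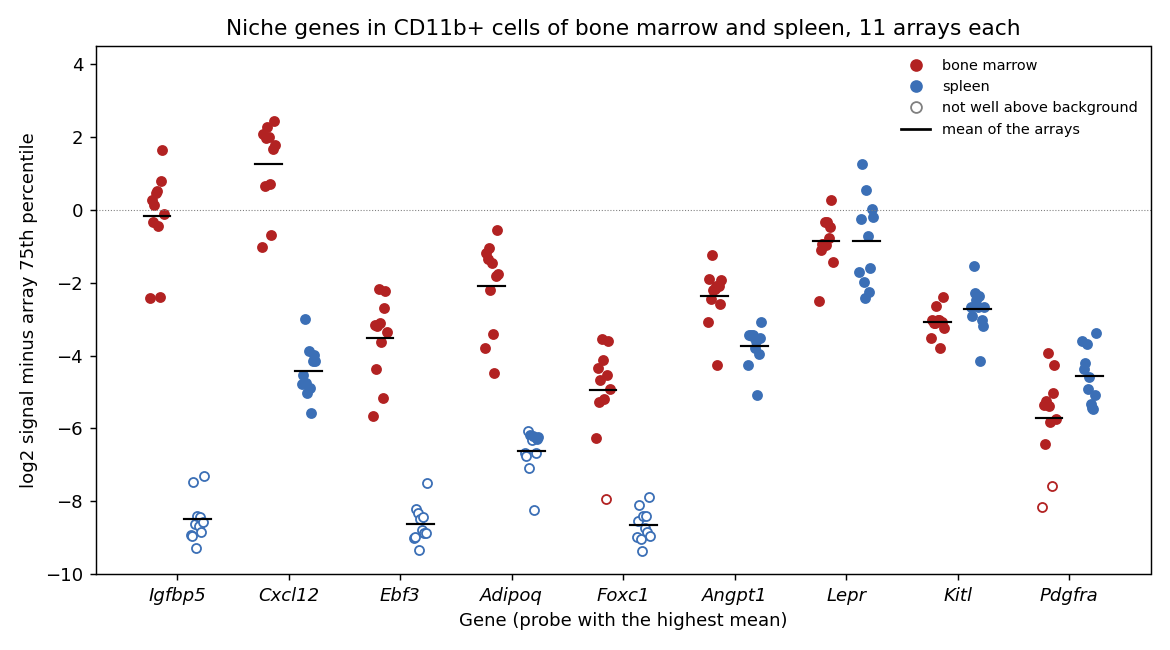
Level of each niche gene (y axis, log2 signal minus the 75th percentile of the array) on the 11 bone marrow arrays (red) and the 11 spleen arrays (blue). Open circles are not well above background and black bars are means. Bone marrow lies wholly above spleen for Igfbp5, Cxcl12, Ebf3, and Adipoq, whereas Foxc1, Angpt1, Lepr, Kitl, and Pdgfra overlap.

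Genes of other stromal cells were read beside the members. Of 22 other reticular genes, 21 were well above background on at least 2 arrays, and 5 were wholly higher in bone marrow, with every bone marrow array above every spleen array (Kng1, Kng2, Cxcl14, Chrdl1, and Wif1), with a median difference of 1.27. Kng2 and Wif1, a kininogen and an inhibitor of WNT signaling, were well above background on 0 spleen arrays and at least 2.54-fold and 3.03-fold higher in bone marrow. Cxcl14, a chemokine, differed by 3.47. Vcam1, the adhesion receptor that reticular cells share with splenic macrophages, differed by -2.09. Lpl, Gas6, Igfbp4, Ebf1, and Csf1 were also lower in bone marrow on average, by -0.985 to -0.727. The summed signal of the list, which its brighter genes set, was 9.46 to 16.7 in bone marrow and 17.6 to 54.1 in spleen. Genes named here for a count or as lower in bone marrow, Vcam1 included, were picked after their values were seen.

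Of 10 osteoblast genes, 4 of the 9 read lay wholly higher in bone marrow. Col1a1, which encodes a chain of type I collagen, ranged from -1.02 to 2.92 in bone marrow and from -3.74 to -1.34 in spleen. Of 10 endothelial genes, Tie1 was wholly higher in bone marrow and Stab2, a scavenger receptor of sinusoidal endothelium, wholly higher in spleen, with a difference of -2.76. Of 7 pericyte and smooth muscle genes, 1 (Nes) was wholly higher in bone marrow, as was Pf4, a platelet chemokine, from the megakaryocyte and platelet list. Of 7 adipocyte genes, Cfd was wholly higher in bone marrow and Pparg in spleen. Of 8 splenic stromal genes, 7 were matched on the array, of which Pdpn was wholly higher in bone marrow and Cxcl13 in spleen. Defining markers of several non-myeloid cell types were thus above background in both tissues. Their part in the levels of the niche genes was not tested, and in such bulk samples fewer cells of a type and less RNA per cell cannot be told apart. Of the 10 myeloid genes read, 5 (Itgam, Itgb2, Lyz2, Ngp, and Mpo) were wholly higher in bone marrow too, so this trait was not particular to stromal genes.

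The partners of the members were read as well. Cxcr4, the receptor of CXCL12, ranged from 3.10 to 4.45 in bone marrow and from 2.19 to 3.71 in spleen. Kit, the receptor of stem cell factor, was lower in bone marrow in 10 of 10 pairs, with a mean difference of -1.08. Ackr3, a scavenging receptor of CXCL12, was above background on 6 bone marrow and 11 spleen arrays, with means of -6.22 and -2.79. Dpp4, the protease that inactivates CXCL12, and Igf1 were wholly higher in spleen, and Adipor2, a receptor of adiponectin, was wholly higher in bone marrow by 0.69. Of the 13 genes on this list, 1 was wholly higher in bone marrow and 2 in spleen.

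Across time, the lowest bone marrow levels of most members were those at 1 week after MI. This was seen in the values, and the comparisons by week were added afterward. Cxcl12 in WT was 1.79 in control, -0.68 at 1 week, 1.66 at 2 weeks, and 2.43 at 4 weeks. In HDC-KO it was 1.98, -1.02, 2.09, and 0.65 in the same order. In STAT6-KO it was 0.71 in control, 2.27 at 2 weeks, and 2.01 at 4 weeks, and the 1 week array was not used. Both 1 week arrays lay below the 9 others, 5.53-fold below control in WT and 8.01-fold below control in HDC-KO.

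Igfbp5 was -2.38 (WT) and -2.41 (HDC-KO) at 1 week, whereas the 9 other arrays ranged from -0.44 to 1.65. Ebf3 was -5.15 and -5.66 against -4.36 to -2.18. Adipoq was -4.49 and -3.79 against -3.41 to -0.54. The 1 week arrays were the lowest for all 3 genes, and the margin was narrowest for Adipoq, whose STAT6-KO control array was itself low.

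Angpt1 was -4.27 (WT) and -3.09 (HDC-KO) at 1 week, against -2.58 to -1.25 on the other arrays. Kitl was -3.78 and -3.53 against -3.24 to -2.38, the smallest shift of the 8. Foxc1 was -7.94 and -6.27 against -5.28 to -3.55, and the WT value was below background. Pdgfra was below background on both 1 week arrays and ranged from -6.42 to -3.93 on the others, so control was at least 1.5-fold higher than 1 week.

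Lepr on its brightest probe was the exception, at -0.76 (WT) and -2.50 (HDC-KO) against -1.43 to 0.27. On the probe A_55_P2192662 both 1 week arrays were below background and the 9 others, all above background, ranged from -4.50 to -2.97, which placed the 3 controls at least 3.85-fold higher. The second probe of Cxcl12 was -2.66 and -3.30 against -1.36 to 0.70.

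On their brightest probes, 8 of the 9 members had both bone marrow MI 1 week arrays below all 9 others, a pattern found in 3.26% of 27065 genes. The WT array had the smallest share of spots well above background of the bone marrow arrays, 71.3%, and the HDC-KO array had 76.1%, within the 75.2 to 79.8% of the rest. The summed signal of the 9 members, in multiples of the 75th percentile, was 1.61 (WT) and 1.17 (HDC-KO) at 1 week and ranged from 3.66 to 11.1 on the other bone marrow arrays.

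**Figure D2:**
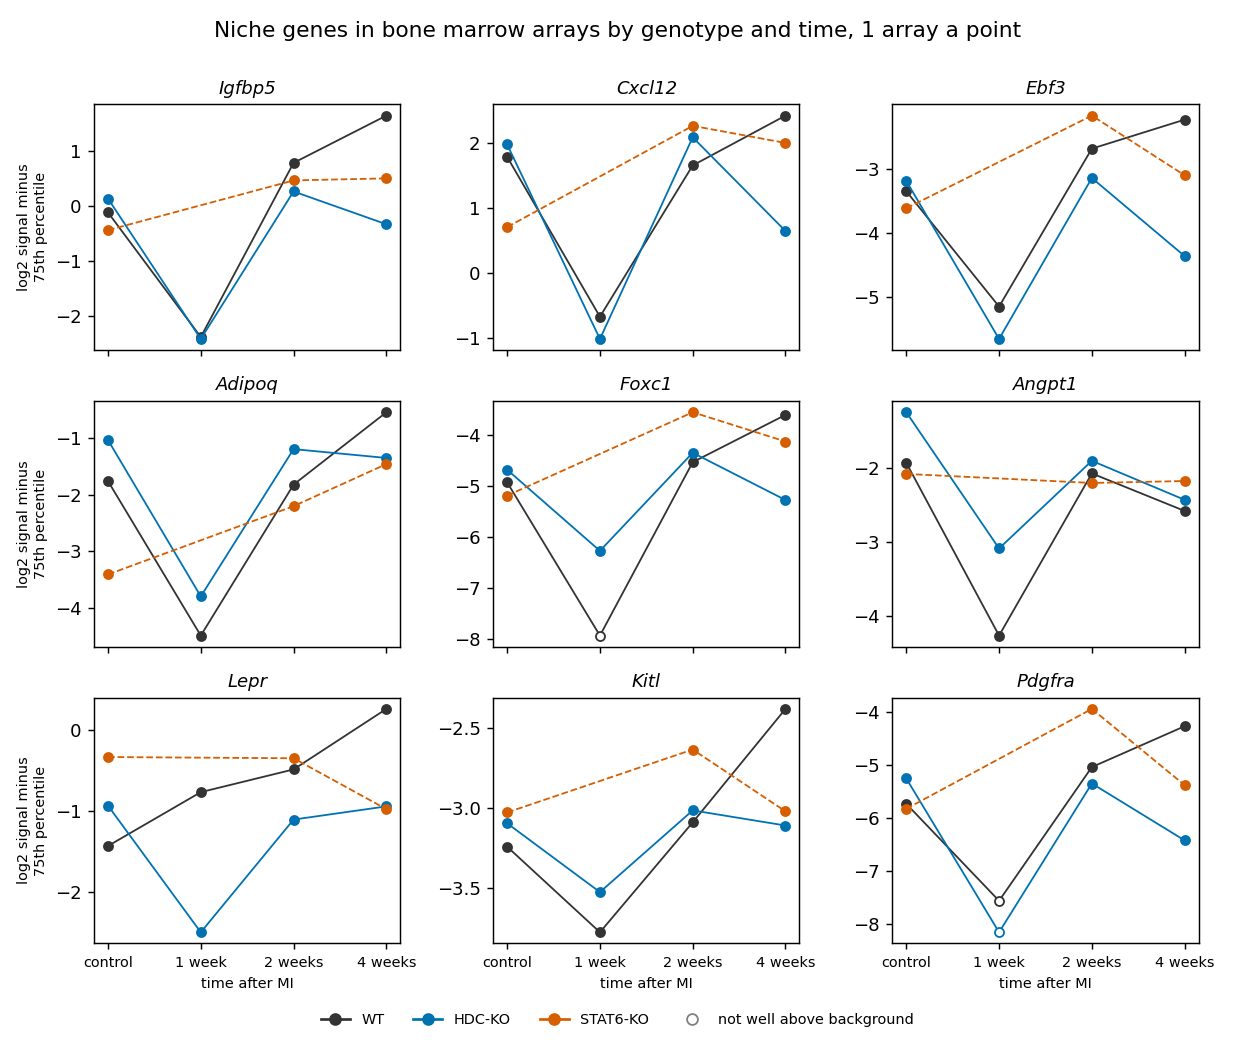
Level of each niche gene on the bone marrow arrays (y axis, log2 signal minus the 75th percentile, own scale in each panel) by time after MI (x axis) and genotype, 1 array a point. The STAT6-KO line (dashed) skips 1 week, and open circles are not well above background. Both 1 week arrays are the lowest of the 11 for 8 of the 9 genes, Lepr being the exception.

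The difference between MI 1 week and control in bone marrow did not pass the test for any member. The limma fit over 11 bone marrow arrays held genotype and time as additive terms, so that the genotypes supplied the replicates. It called 0 of 9 members at an adjusted p under 0.05, and 0.148% of all genes (40 of 27090). At an unadjusted p under 0.05 there were 7 of 9 members, beside 5337 of the 27090 genes. In limma Cxcl12 differed from control by -2.38 (SE 0.58, adjusted p = 0.121), Igfbp5 by -2.33 (SE 0.45, adjusted p = 0.0902), and Adipoq by -2.43 (SE 0.48, adjusted p = 0.0903).

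Angpt1 had the smallest adjusted p of the members, with a difference of -1.97 (SE 0.30, limma adjusted p = 0.0683). It was called when dim probes were dropped, keeping those bright on all arrays of the fit (limma adjusted p = 0.0408) and without the STAT6-KO arrays (-2.09, limma adjusted p = 0.0482). Over its alternatives the adjusted p of Angpt1 reached 0.537, and the share of all genes called in them was not counted. Ebf3 differed by -1.95, Foxc1 by -2.08, and Pdgfra by -2.17 on their measured values, with adjusted p between 0.127 and 0.168 in limma. Kitl differed by -0.50 (SE 0.27) and Lepr by -0.66 (SE 0.53).

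With normexp background correction, Foxc1, Kitl, and Pdgfra turned to 0.28, 0.04, and 0.43. That correction left the WT bone marrow MI 1 week array with a first percentile of 139.5 signal units, against 56.0 to 58.0 on the other bone marrow arrays. The median difference of the 9 members was -2.08, against 0.06 over all genes tested. The member median is the value of Foxc1, whose WT array at 1 week was below background.

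In the fit over the genotypes, 8 of the 9 members lay above control at 2 and at 4 weeks. The genotypes were not tested against each other at single times. At 4 weeks every member lay below control in HDC-KO, from -1.34 (Cxcl12) and -1.18 (Angpt1) to -0.01 (Lepr), whereas in WT all but Angpt1 lay above it. At 2 weeks limma called 0 of 9 members and 0% of all genes, with a median difference of 0.51 over the members. At 4 weeks it called 0 of 9 and 0% of all genes, with a median of 0.29. At an unadjusted p under 0.05 there were 0 of 9 members beside 2025 of 27090 genes at 2 weeks. At 4 weeks there was 1 of 9 beside 5187 of 27090. Angpt1 alone was below control at both times, by -0.31 (SE 0.26) and -0.64 (SE 0.26, limma adjusted p = 0.24).

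**Figure D3:**
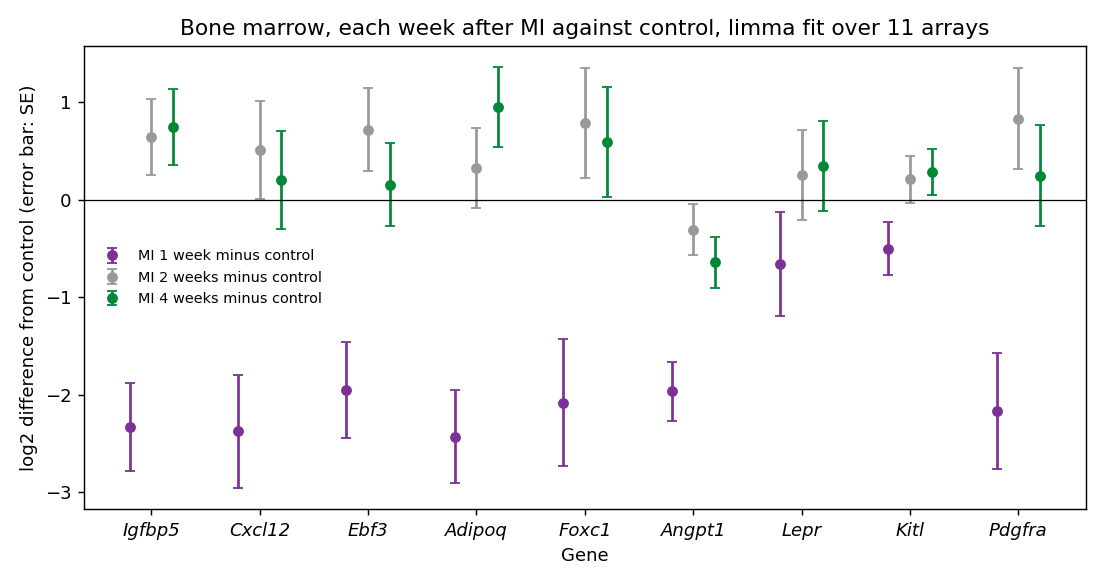
Difference of each week after MI from control in bone marrow (y axis, log2) for each niche gene, from the limma fit over 11 arrays, with bars of 1 SE. At 1 week 7 of the 9 genes lie between -2.43 and -1.95, and at 2 and 4 weeks the values lie between -0.64 and 0.95.

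Other lists moved beside the members on the 1 week arrays. The other reticular genes had a median difference of -1.48, with 17 of 21 below 0 and 0 of 21 called by limma. Their summed signal, which the brighter genes of the list set, was 11.9 (WT) and 16.1 (HDC-KO) at 1 week and 9.46 to 16.7 on the other bone marrow arrays. The 6 megakaryocyte and platelet genes had a median of -1.44 with 5 of 6 below 0, and Ppbp, a platelet chemokine, fell by 2.62 (SE 0.28, limma adjusted p = 0.0408). Their summed signal was 8.58 (WT) and 9.91 (HDC-KO) at 1 week and 14.4 to 39.0 on the other bone marrow arrays.

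The 10 endothelial genes had a median of -0.81, and a summed signal of 4.03 and 4.38 at 1 week against 5.10 to 8.36 on the others. The 7 stem and progenitor genes had a median of -1.16, and a summed signal of 5.82 and 4.44 against 4.87 to 8.49. Rgs5, a pericyte gene, was above background on 0 of the 2 arrays at 1 week and on all 9 others, where it ranged from -5.05 to -3.32. It was called by limma (adjusted p = 0.0408), and the controls were at least 4.22-fold higher than 1 week. Esam, an endothelial junction gene, and Slamf1, a stem cell surface gene, were called too, with differences of -2.21 and -2.54, and were picked for that call after their values were seen.

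In contrast, the osteoblast genes had a median of 0.57 with 3 of 9 below 0, the pericyte and smooth muscle genes 0.23, the splenic stromal genes 0.49, and the adipocyte genes -0.07. The summed signal of the adipocyte genes was 2.22 and 2.36 at 1 week and 2.26 to 5.995 on the others. The 10 myeloid genes had a median of 0.39, with 0 of 10 called, and Itgam differed by 0.46 (SE 0.18). The summed signal of the myeloid genes was 613.9 (WT) and 561.0 (HDC-KO) at 1 week and 429.8 to 700.3 on the others. The 13 partner genes had a median of -0.58, with 0 of 13 called. Cxcr4 differed by 0.77 (SE 0.21) and Kit by -0.67 (SE 0.31). The part of these lists in the levels of the members was not tested.

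**Figure D4:**
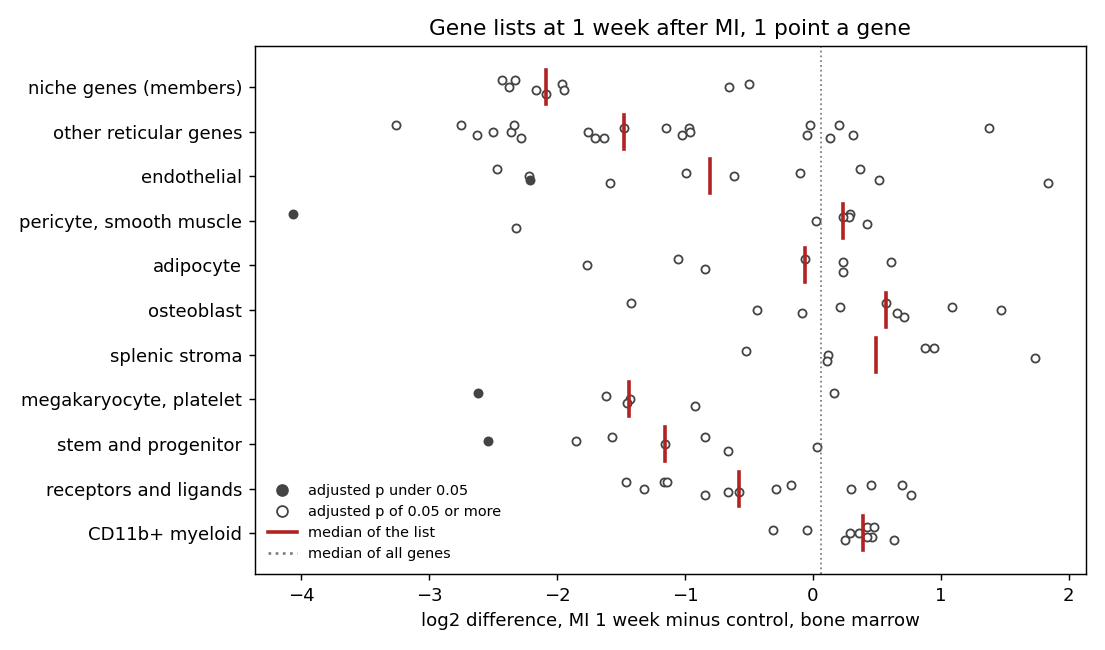
Difference between MI 1 week and control in bone marrow (x axis, log2) for the niche genes and 10 other lists, 1 point a gene, filled where the limma adjusted p was under 0.05. Red bars are list medians and the dotted line is the median of all genes. The medians of the niche genes (-2.08), the other reticular genes (-1.48), and the megakaryocyte genes (-1.44) lie lowest.

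In spleen 6 of the 9 members could be tested, since Igfbp5, Ebf3, and Foxc1 were below background. MI 1 week against control gave 1 call of 6 in limma beside 7.9% of all genes. At an unadjusted p under 0.05 there were 3 of 6 members beside 7249 of 26472 genes. Lepr on its brightest probe was -0.21 (WT) and -0.72 (STAT6-KO) in control. It was -2.25 (WT), -1.71 (HDC-KO), and -1.97 (STAT6-KO) at 1 week, each below both controls. At 2 weeks it was -1.58 (WT), -0.25 (HDC-KO), and -2.42 (STAT6-KO), the last being the lowest spleen array, so low values were not limited to 1 week. The WT spleen array at 1 week had 70.4% of its spots well above background, the smallest share of all arrays. The HDC-KO spleen control array was not used, so the fit placed that genotype by its later arrays. The difference of Lepr between 1 week and control was -1.86 (SE 0.40, limma adjusted p = 0.0336). In limma the call was lost without the WT arrays (adjusted p = 0.374), without the HDC-KO arrays (adjusted p = 0.0978), and with normexp (adjusted p = 0.489).

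Cxcl12 in spleen differed by -0.65 (SE 0.39) at 1 week, and the other tested members by between -1.20 and -0.17. Whether the 1 week difference was unequal between tissues was tested on the 10 pairs of arrays. Limma called 0 of 9 members and 0% of all genes. Igfbp5, Ebf3, and Foxc1 entered this fit through bone marrow alone, so their values cannot compare the tissues. At an unadjusted p under 0.05 there were 0 of 9 members beside 4405 of 27639 genes. For Cxcl12 the difference between tissues was -0.80 (SE 0.82) and for Lepr 1.88 (SE 0.83), so the effects in the tissues were not shown to be unequal.

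Taking the 3 times after MI as 1 group, limma called 0 of 9 members in bone marrow, where it called 0% of all genes. All 9 members lay below 0 there, between -0.97 (Angpt1, SE 0.22, limma adjusted p = 0.179) and -0.002 (Kitl). Without the 1 week arrays 8 of these 9 turned above 0, and Angpt1 stayed below. In spleen it called 0 of 6 members and 0.00378% of all genes (1 of 26472), with values between -0.81 (Lepr) and -0.03 (Cxcl12). At an unadjusted p under 0.05 there was 1 member in each tissue. It was Angpt1 in bone marrow, beside 4530 of 27090 genes, and Lepr in spleen, beside 4168 of 26472.

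With all genotypes in the fit, genotype gave no call among the members in either tissue. HDC-KO against WT in bone marrow called 0 of 9 in limma beside 0.443% of all genes, and 6 of 9 members lay below 0. At an unadjusted p under 0.05 there was 1 of 9 members beside 5751 of 27090 genes. Ebf3 differed by -0.73 (SE 0.37) and Igfbp5 by -0.57 (SE 0.34), whereas Angpt1 differed by 0.55 (SE 0.23, limma adjusted p = 0.226). STAT6-KO against WT in bone marrow called 0 of 9 beside 4.61% of all genes, and unadjusted 0 of 9 beside 6077 of 27090. The largest difference was that of Adipoq at -0.92 (SE 0.40, limma adjusted p = 0.233).

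The WT, HDC-KO, and STAT6-KO ranges of Cxcl12 in bone marrow overlapped, at -0.68 to 2.43, -1.02 to 2.09, and 0.71 to 2.27. In spleen, HDC-KO against WT called 0 of 6 members beside 2.8% of all genes, and unadjusted 2 of 6 (Lepr and Kitl) beside 5987 of 26472. With the arrays of WT and HDC-KO alone, limma called Pdgfra (1.28, SE 0.22, adjusted p = 0.0334) and Lepr (1.03, SE 0.20, adjusted p = 0.0422), both higher in HDC-KO, and without the control arrays it called Pdgfra (adjusted p = 0.0439). The share of all genes called in these alternative fits was not counted, so these calls have no background beside them. STAT6-KO against WT called 0 of 6 beside 1.95%, and unadjusted 1 of 6 (Kitl) beside 6068 of 26472 genes. Kitl in spleen was higher than in WT by 1.00 (SE 0.37, adjusted p = 0.162) in HDC-KO and by 0.81 (SE 0.33, adjusted p = 0.196) in STAT6-KO in the limma fits, which share the WT arrays. By the methods' t-test with its fold change limit, 0 members passed in each of the 4 genotype comparisons, with and without Benjamini-Hochberg adjustment. The share of all genes that passed it was not counted.

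The genotype effect was also set between tissues on the 10 pairs. The HDC-KO effect in bone marrow minus that in spleen called 0 of 9 members in limma beside 0.988% of all genes. Of the members 8 of 9 lay below 0, beside 54.42% of all genes. Igfbp5, Ebf3, and Foxc1 entered the pair fits through bone marrow alone, with 0 of 11 spleen arrays well above background. Their spleen side was not measured, so their values cannot compare the effect between tissues. Unadjusted, 1 of 9 (Kitl) stood beside 4107 of 27639 genes, at -0.98 (SE 0.41, limma adjusted p = 0.296). The STAT6-KO effect called 0 of 9 beside 0.347%, and unadjusted 0 of 9 beside 3799 of 27639. The pairs of Cxcl12 put bone marrow above spleen by 5.76 in WT (4.89 to 6.40, n = 4), 4.67 in HDC-KO (3.64 to 6.63, n = 3), and 6.26 in STAT6-KO (5.60 to 7.30, n = 3). The ranges of the genotypes overlapped, and all 10 pairs went the same way.

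Some of the members also varied together over the bone marrow arrays. The 2 MI 1 week arrays stood apart, so the relation with Cxcl12 is given over the 9 others as a description, from arrays that share slides and a pooled source. Foxc1 had a Pearson r of 0.86 (Spearman rho 0.92) with Cxcl12, Ebf3 of 0.84 (rho 0.80), Pdgfra of 0.80 (rho 0.77), and Igfbp5 of 0.74 (rho 0.68). Kitl had 0.53 (rho 0.80) and Adipoq 0.55 (rho 0.40). Lepr had 0.15 (rho 0.18) and Angpt1 0.11 (rho -0.15).

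Leaving out also the 2 arrays farthest from the median of Cxcl12, which left 7, gave 0.85 for Foxc1, 0.62 for Ebf3, 0.72 for Pdgfra, 0.54 for Igfbp5, and 0.89 for Kitl. It gave 0.44 for Adipoq, 0.62 for Lepr, and -0.46 for Angpt1, so the values of Lepr and Angpt1 rested on those arrays. After the mean of each genotype was taken off, the values over 9 arrays were 0.90 for Foxc1, 0.88 for Ebf3, 0.82 for Pdgfra, 0.73 for Igfbp5 and for Adipoq, and 0.52 for Kitl. Foxc1, Ebf3, Pdgfra, and Igfbp5 kept an r of 0.54 or more in each form, and Kitl lay close to them, between 0.52 and 0.89.

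The genes whose pattern over all 11 bone marrow arrays was most like that of each member were read out as well. Likeness was Pearson's r among 14543 named genes well above background on all 11 arrays, and the low MI 1 week arrays weigh heavily in it. For Cxcl12 the closest were Esm1 (r = 0.98), Cxcl14 (0.97), and Col6a1 (0.97), and Esm1 was also the closest to Igfbp5 (0.98) and Ebf3 (0.97). Pdgfrb was closest to Foxc1 (0.98) and Ebf3 to Pdgfra (0.99), although Foxc1 was above background on 10 and Pdgfra on 9 of the 11 arrays.

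For the remaining members the closest genes were Il1r1 for Kitl (0.95), Mcpt8, Ly6d, and Gata2 for Adipoq (0.95 each), 2610008E11Rik for Angpt1 (0.98), and Klk1b21 for Lepr (0.98). Mcpt8, a basophil protease, and Ly6d, a lymphoid precursor marker, are not stromal genes. The 10 genes with the highest median r over the 7 members above background on all bone marrow arrays were Gdpd2 (0.92), Kng1 (0.91), Pdgfrb, Cxcl14, Il1r1, Npdc1, Esm1, Fbln5, Serpine2, and Kank2 (0.86). Of these, 4 were on the list of other reticular genes, and 3 (Kng1, Cxcl14, and Serpine2) were wholly higher in bone marrow than in spleen.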

How the data were processed

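CD11b+ cells of 24 conditions were measured on one-colour Agilent arrays, 1 array per condition, each of 5 pooled mice. Of these arrays, 22 were complete. The members and gene lists were chosen with earlier results of these data known. The authors deposited scanner output whose processed signal intensity was background-subtracted by Agilent Feature Extraction 11.0.1.1, per the file headers, and no between-array step had been applied. The processing notes also name GCRMA, and the study's methods name GeneSpring without settings, and neither step was visible in the scanner intensities.

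Control spots and 3055 outlier spots were left out and 0 spots were saturated. Levels were log2 of the processed signal minus the 75th percentile of the array over the 43020 other spots, spots of a probe were averaged, and a gene was read on its probe with the highest mean. Symbols came from RefSeq accessions and named 27234 of 39429 probes (20658 genes), and the rest kept their identifiers.

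Each tissue was fitted in limma 3.58.1 (R 4.3.3) with genotype and time as additive terms, over all genes well above background on at least 2 arrays of the fit, with Benjamini-Hochberg adjustment at 0.05. The arrays of the other genotypes or times served as replicates, so that p-values assume additive effects and measure the spread between single pooled arrays. Differences between tissues used 10 pairs of arrays of the same genotype and time. A pair passed the filter where either of its arrays was well above background. Bone marrow against spleen was described without a test. The number of arrays limits the precision, since each condition had 1. The fits were tested on simulated data.

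Named were the 9 members, up to 3 genes per list with the largest tissue difference, any partner or myeloid gene, the 3 genes most like each member, and the 10 most like all. Alternatives were quantile and median scaling, normexp with an offset of 50 on the median spot signal, raising each array's dim spots to its weakest signal flagged above background, the mean over probes, other filters, fewer groups, the methods' t-test, and leaving out each genotype or time. Sequences were credited to RefSeq, and figures were drawn in Python 3.11.15 with matplotlib 3.10.9.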

Additional observations from a re-analysis of the deposited data

How the results depend on the processing

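Counts of members equalled the main count, or stayed within 1.5 times of it if above 0, in 154 settings and moved in 9. The main count was 0 in every fit except MI 1 week in spleen, so there an equal count is 0 again. Single members kept their direction and side of the threshold (or, with no test, moved by less than the spread of the pairs) in 454 settings. They reversed in 48, moved further in 8, gained a call in 2, and lost 1 in 3. With normexp, which left the first percentile at 732.1, 156.8, and 139.5 signal units on 3 arrays, 1 member lay wholly higher in bone marrow, against 4. HDC-KO against WT in spleen called 2 members (Pdgfra and Lepr) with those genotypes alone and 0 to 1 when a time was left out. MI 1 week in bone marrow called 1 member (Angpt1) among probes bright on all arrays and 0 to 1 when a genotype was left out. MI 1 week in spleen called 0 with normexp, and 0 to 3 when a genotype was left out (without STAT6-KO, Lepr, Angpt1, and Pdgfra). The share of all genes called was not counted in these settings, and the cause was not tested.

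Between tissues, Lepr turned to 1.075 with the mean over its probes, to 0.4 within WT, and to 0.59 within STAT6-KO, and ranged from -0.323 to 0.403 when a time was left out. Kitl turned to 0.131 within WT. For HDC-KO against WT in bone marrow, Foxc1 turned to -0.384 with normexp and -0.435 with the floor. Leaving out a time gave -0.644 to 0.094 for Cxcl12, -0.17 to 0.158 for Kitl, and -0.413 to 0.7 for Foxc1. For STAT6-KO against WT in bone marrow, Kitl turned to -0.046 with quantile scaling, -0.044 with the median, and -0.034 with normexp, which also turned Foxc1 to -0.058 and Angpt1 to -0.045. Leaving out a time there gave -0.678 to 0.15 for Cxcl12, -0.487 to 0.065 for Ebf3, and -0.687 to 0.34 for Lepr. It gave -0.123 to 0.36 for Kitl, -0.014 to 0.307 for Angpt1, and -0.564 to 0.39 for Pdgfra.

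After MI in bone marrow, without the 1 week arrays the values were 0.357 for Cxcl12, 0.695 for Igfbp5, 0.435 for Ebf3, 0.3 for Lepr, 0.248 for Kitl, 0.693 for Foxc1, 0.639 for Adipoq, and 0.54 for Pdgfra. Normexp gave 0.206 for Ebf3, 0.173 for Kitl, 0.408 for Foxc1, and 0.371 for Pdgfra, and the floor gave 0.129 for Foxc1 and 0.199 for Pdgfra. Leaving out a genotype gave -0.601 to 0.033 for Ebf3, -0.688 to 0.369 for Lepr, -0.047 to 0.023 for Kitl, -0.523 to 0.04 for Foxc1, and -0.642 to 0.148 for Pdgfra. For MI 1 week in bone marrow, normexp gave 0.041 for Kitl, 0.281 for Foxc1, and 0.426 for Pdgfra, and leaving out a genotype gave -1.645 to 0.116 for Lepr. Cxcl12, Igfbp5, Ebf3, Adipoq, and Angpt1 lay below 0 at 1 week in all 10 settings, Ebf3 between -2.13 and -0.32.

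Arrays could not be paired by mouse, since each condition had 1 array of pooled cells. The 10 pairs used between tissues join arrays by genotype and time alone. Foxc1 and Pdgfra were near background at 1 week, so their fitted differences there depend on how dim spots are treated. Genotype and slide, and time and position on the slide, cannot be told apart.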

Other observations

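Among the 10 other lists, 1 gene was called for each genotype in bone marrow, and both were picked after their values were seen. Gp9, a subunit of the platelet receptor for von Willebrand factor, was higher in HDC-KO than in WT by 1.08 (SE 0.16, limma adjusted p = 0.0484). Ccl19, a chemokine of lymphoid stroma, was higher in STAT6-KO than in WT by 1.37 (SE 0.27, limma adjusted p = 0.0376).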
